A study of Mus musculus with 10 samples.

Results

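Ppargc1a and 9 other genes that control the building of mitochondria were examined in the gastrocnemius, a calf muscle that plantarflexes the foot, from C57BL/6 male mice. The members were Ppargc1a and Ppargc1b (coactivators), Esrra, Esrrg, Ppara and Ppard (nuclear receptors), Nrf1 and Gabpa (nuclear respiratory factors), Tfam (the packaging factor of mitochondrial DNA) and Prkaa2 (a catalytic subunit of the energy-sensing kinase AMPK). They are a list of names proposed with earlier results of these data known, and a gene was read from the probe set with the highest mean among those that the platform annotation gives to that symbol alone. All 10 were found among 19938 genes so named, and all 10 lay above the filter on dim genes, which kept 11963.

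Ppargc1a encodes PGC-1alpha, a coactivator that binds transcription factors rather than DNA and is known to be induced in muscle by contraction. Through estrogen-related receptors (Esrra, Esrrg), PPARs (Ppara, Ppard) and nuclear respiratory factors (Nrf1, and Gabpa as the DNA-binding subunit of GABP) it raises genes of respiration and fatty acid oxidation. Nuclear respiratory factors in turn drive Tfam, whose protein enters mitochondria to package and transcribe their genome, and AMPK phosphorylates PGC-1alpha when cellular energy is low.

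Each of the 10 arrays was hybridised with RNA pooled from 5 males. In the F0 generation, mice with access to voluntary exercise (EX) and mice kept sedentary (SED) were 28 weeks old and gave 1 pool each. F0 mice had been mated with partners of the same exposure, F1 mice were mated with littermates, and the F1 and F2 descendants were themselves sedentary and 8 weeks old, so EX and SED name only their ancestry. Each of the 4 descendant groups had 2 pools. No label says that pools of a group hold different animals, so every p-value below measures the spread between pools, which may be technical. A log2 probe set signal is the unit throughout, 1 unit is a doubling, and levels are compared only within a probe set.

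The 10 muscle fibre markers on the marker list (such as Acta1, Ckm and Myh4) had signals between 11.12 and 13.54 in every array, at the bright end of a table that ran from 0.97 to 14.23. Correlation with the other arrays had a median r of 0.974 for F0 SED and 0.979 for F1 EX pool 1, against 0.986 to 0.993 for the remaining arrays, and both arrays had a raised lower quartile (2.48, against 2.28 to 2.32). Several estimates among descendants are therefore also given without F1 EX pool 1, and no F0 exposure comparison can be made without F0 SED. In pooled tissue, fewer cells of a type and less RNA per cell cannot be told apart.

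Ppargc1a had the widest F0 difference among the 10 genes. Its signal was 7.13 in F0 EX and 6.36 in F0 SED, a log2 difference of 0.76 or 1.70-fold, with 1 pool a group and hence no test. Descendant pools lay in between, at 6.94 and 6.83 in F1 EX, 7.00 and 6.61 in F1 SED, 6.86 and 6.64 in F2 EX, and 6.86 and 6.52 in F2 SED. F0 EX was thus above and F0 SED below all 8 descendant arrays, a pattern shared by 754 of the 11963 genes (6.3%). The reverse placing was seen in 0 of 10 members and in 1.38% of genes. The order of the group means was F0 EX, F1 EX (6.89), F1 SED (6.81), F2 EX (6.75), F2 SED (6.69), F0 SED. Neighbours among the 4 descendant means stood 0.08 apart or less, under the SD of 0.20 between pools of a group, and their pools overlapped.

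A further probe set of Ppargc1a, dimmer and not used for the gene's value, gave the same order of the F0 pools. It read 6.42 in F0 EX and 4.85 in F0 SED, a log2 difference of 1.58 or 2.98-fold. Its descendant values were 5.40 and 5.75 in F1 EX, 5.89 and 5.79 in F1 SED, 5.90 and 5.67 in F2 EX, and 5.92 and 5.45 in F2 SED. Here too the F0 pools lay on opposite sides of every descendant pool, whereas F1 EX lay below F1 SED without overlap, unlike at the brighter probe set. In F1, 16.6% of all genes were lower in EX without overlap. The closest F1 pools here read 5.75 and 5.79, and the F1 estimate of -0.26 became -0.09 without F1 EX pool 1. Among all genes, a difference of 0.76 between the F0 pools was at percentile 94.3 and one of 1.58 at percentile 99.9.

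**Figure D1:**
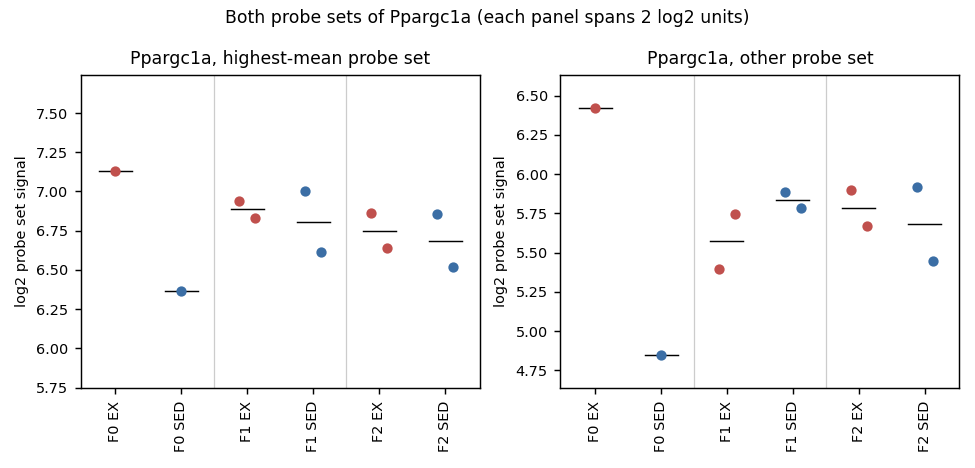
Log2 signal of both Ppargc1a probe sets in the 10 pools (red EX, blue SED, black lines group means, each panel spanning 2 log2 units). In both panels F0 EX is the highest point (7.13 and 6.42) and F0 SED the lowest (6.36 and 4.85), with the 8 descendant pools between them.

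The stretches before the start sites of Ppargc1a, Prkaa2 and Tfam are printed because these genes had the widest F0 differences of the 10. Each is 250 bases, 5′ to 3′ on the gene's own (minus) strand, from RefSeq on build GRCm38.p6, with matches to the searched motifs in capitals. They lie at chr5:51567726-51567975 (Ppargc1a), chr4:105109899-105110148 (Prkaa2) and chr10:71238045-71238294 (Tfam), and those of Ppargc1a and Tfam do not abut the outermost start of the gene in the RefSeq table.
Ppargc1a: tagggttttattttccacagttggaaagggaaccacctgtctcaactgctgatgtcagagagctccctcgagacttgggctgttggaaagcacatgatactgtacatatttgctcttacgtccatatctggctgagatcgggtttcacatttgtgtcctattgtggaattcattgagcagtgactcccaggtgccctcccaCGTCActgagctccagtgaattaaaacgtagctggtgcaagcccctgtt
Prkaa2: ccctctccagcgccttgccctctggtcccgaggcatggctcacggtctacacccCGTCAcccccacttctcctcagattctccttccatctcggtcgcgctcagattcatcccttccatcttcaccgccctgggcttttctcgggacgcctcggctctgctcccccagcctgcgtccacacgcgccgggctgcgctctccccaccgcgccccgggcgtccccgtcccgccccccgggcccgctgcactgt
Tfam: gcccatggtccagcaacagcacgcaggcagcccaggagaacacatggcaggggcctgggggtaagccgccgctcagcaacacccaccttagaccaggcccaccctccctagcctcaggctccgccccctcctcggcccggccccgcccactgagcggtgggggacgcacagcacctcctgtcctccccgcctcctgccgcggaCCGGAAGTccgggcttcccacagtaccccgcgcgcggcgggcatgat

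In Ppargc1a the capitals mark TGACG, the core of the cyclic AMP response element, read on the opposite strand and so printed as CGTCA, at bases -49 to -45 from the start site. The same core stood at -196 to -192 of Prkaa2. In Tfam they mark CCGGAAGT, a GABP motif, at -47 to -40. Windows of 300 bases (250 before and 50 after a start) were searched on both strands, and 13 windows of 9 members were counted. Members' windows on chromosome 18, where Ppargc1b lies, were left out, so none was counted for that gene. TGACG was present in 4 of these 13 windows and in 20.8% of all 32851 windows, and CCGGAAGT in 1 of 13 and in 3.89%. The NRF1 palindrome, GCGCA followed by its reverse complement TGCGC, was found in Ppara at -31 to -22 (0.971% of windows). Esrrg held the MEF2 pattern, CTA and TAG with 4 free bases between, at -22 to -13 (3.69%). Neither the estrogen-related receptor motif TNAAGGTCA (1.28% of windows) nor the PPAR direct repeat of AGGTCA with a free base between (0.04%) occurred in the 13 windows counted. A match is a string of letters here, not a site shown to be bound.

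Of the other members, Prkaa2 and Tfam had the next widest F0 differences. Prkaa2 read 10.17 in F0 EX and 9.73 in F0 SED, a log2 difference of 0.45 (1.36-fold), while its 8 descendant pools lay from 10.00 through a median of 10.05 to 10.18. F0 SED was below all of them and F0 EX within their range. Tfam read 6.34 and 5.92, a difference of 0.41 (1.33-fold), and both values lay within the descendants' range of 5.68 to 6.42. Prkaa2 thus lay outside its descendants only in F0 SED, a pool that lay below all descendants for 29.5% of all genes. Tfam did not lie outside its descendants.

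The remaining 7 regulators differed between the F0 pools by less than 0.25 on the log2 scale. Ppara was 0.15 higher in F0 EX, Gabpa 0.11 and Esrrg 0.10, and Ppard was level at 5.89 in both pools. Esrrg in F0 EX, at 6.17, was just above its highest descendant pool (6.15). Esrra was 0.09 lower in F0 EX, and its signals of 6.98 and 7.08 sat within a descendant range of 6.87 to 7.14. Ppargc1b, the second coactivator, was 0.14 lower and Nrf1 0.23 lower. The nuclear receptors and GABP thus showed small differences of both signs, that of Ppargc1b was 0.01 after centring over all probe sets, and none of these 7 was outside the bound of 0.5.

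Only Ppargc1a passed that bound, 1 of 10 members, where 20.7% of all genes did (15.3% higher and 5.38% lower in F0 EX). The members' median difference was 0.11 and that of all genes 0.08. F0 SED was below all descendants for 2 of 10 members (29.5% of all genes), and F0 EX above all descendants for 2 of 10 (21.8%). Each of these shares rests on 1 or 2 genes and lay below that of all genes.

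The F0 differences depended on how the 2 arrays were scaled. The median of F0 EX was 0.15 below that of F0 SED over all probe sets but 0.12 above it over the kept genes, so the choice of genes for centring moves a difference in opposite directions. At the bound of 0.5, 3 members passed after the first centring (27.1% of all genes), 1 after the second (19.7%) and 1 after quantile normalization (18.4%). Higher and lower genes numbered 1835 and 644 as deposited, 2930 and 305 after the first centring, 1197 and 1162 after the second, and 1278 and 927 after quantile normalization. Ppargc1a stayed above the bound, at 0.91 and 0.65 after these centrings and 0.56 after quantile normalization, and its other probe set at 1.72, 1.46 and 1.47. Prkaa2 was at 0.59, 0.33 and 0.17, and Tfam at 0.56, 0.30 and 0.27. The signs of Gabpa, Esrrg, Ppard, Esrra and Ppargc1b turned under at least 1 of the 3 scalings.

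**Figure D2:**
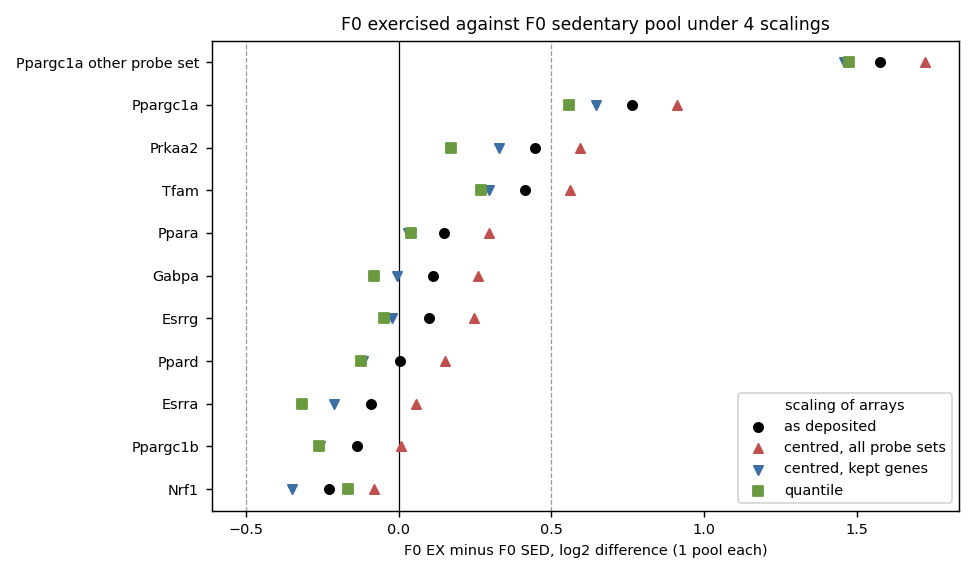
F0 EX minus F0 SED on the log2 scale, 1 pool each, for the 10 members and the further Ppargc1a probe set under 4 scalings of the arrays, with dashed lines at the bound of 0.5. The deposited Ppargc1a values (0.76 and 1.58) and their rescaled ones lie right of the bound, and the deposited values of the other 9 genes lie within it.

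Lists of genes around these regulators were set beside them in the F0 pair. For the counts of each list below, 15.3% of all genes were higher by at least 0.5 and 5.38% lower, with a median of 0.08. Of 12 further AMPK subunits and upstream kinases, 1 was higher by at least 0.5 and 0 lower, with a median of 0.02. That 1 was Prkag1, a regulatory subunit of AMPK, at 0.74, with F0 SED (7.57) below its descendants (8.14 to 8.39). Partners and upstream regulators of the coactivator had 1 of 22 higher (Mef2d, a contraction-responsive muscle factor, 0.54) and 1 lower (Esrrb, the third estrogen-related receptor, -0.70), with a median of 0.06. Esrrb was dim, its descendants lying near the filter cutoff of 3.23. Sirt1, the deacetylase of PGC-1alpha, was 0.44 higher. Neither of these layers leaned one way.

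Of 8 corepressors and opposing factors, 3 were higher by at least 0.5 and 0 lower, and the median was 0.24. These were the histone deacetylase Hdac3 (0.86), the retinoblastoma gene Rb1 (0.73) and Lpin1 (0.52), a lipin that also acts as a coactivator. Among 14 genes of mitochondrial DNA transcription and replication, 3 were higher and 0 lower, with a median of 0.11. They were the helicase Twnk (1.05), the single-strand binding protein Ssbp1 (0.59) and the elongation factor Tefm (0.56), while the topoisomerase Top1mt was at -0.44. The machinery of mitochondrial DNA thus had values on both sides of 0, and 1 of the 3 genes that passed the bound on the opposing list, Lpin1, is not known only as an opponent. After quantile normalization 2 opposing factors were higher and 1 lower, and 1 gene of the mitochondrial DNA list was higher and 1 lower.

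Known PPAR target genes had a median difference of 0.46, and 8 of 16 were higher by at least 0.5 and 0 lower. The fatty acid transporter Cd36 was 1.12 higher, the beta-oxidation subunit Hadha 1.10, the pyruvate dehydrogenase kinase Pdk4 1.02 and the thioesterase Acot2 0.93. Angptl4 (-0.48), Ech1 (-0.33) and Ucp3 (-0.17) had the opposite sign. Known PGC-1alpha, ERR and NRF targets had a median of 0.33, and 6 of 21 were higher by at least 0.5 and 0 lower. Ndufa9 of complex I (0.82), the citrate cycle enzyme Idh3a (0.81), Sdha of complex II (0.66) and Uqcrc1 of complex III (0.55) had the highest values. Of 6 genes of mitochondrial fusion and fission, the fission motor Dnm1l (0.61) and the fusion protein Mfn1 (0.55) passed the bound, and the median was 0.28. The medians of these 3 lists were 0.61, 0.48 and 0.43 after centring over all probe sets, where that of all genes was 0.22. After centring over the kept genes they were 0.35, 0.21 and 0.16, beside -0.04 for all genes. After quantile normalization they were 0.27, 0.05 and 0.04, beside 0.01 for all genes. The counts were then 5 higher and 1 lower for PPAR targets, 2 and 0 for PGC-1alpha, ERR and NRF targets, and 0 and 0 for fusion and fission.

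Markers of muscle fibres also differed in this pair of arrays, where 6934 of all 11963 genes were higher in F0 EX and 15.3% by at least 0.5. All 10 general fibre markers were higher in F0 EX (median 0.36, 1 by at least 0.5), as were 9 of 9 slow fibre markers (median 0.44, 4 by at least 0.5, led by Tnnc1 at 1.17). After quantile normalization these medians were 0.09 and 0.24, with 0 and 2 markers higher by at least 0.5. Against their means over all arrays, the general markers averaged -0.32 in F0 SED and 0.03 in F0 EX, with descendants from -0.14 to 0.09. F0 SED was below all descendants for 7 of 10 of them, for 14 of 21 PGC-1alpha, ERR and NRF targets and for 29.5% of all genes. The 5 endothelial markers averaged -0.59 in F0 SED and -0.17 in F0 EX, and all 5 were below every descendant pool in F0 SED. The part of these shifts in the values of Ppargc1a, Prkaa2 and the target lists was not tested.

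**Figure D3:**
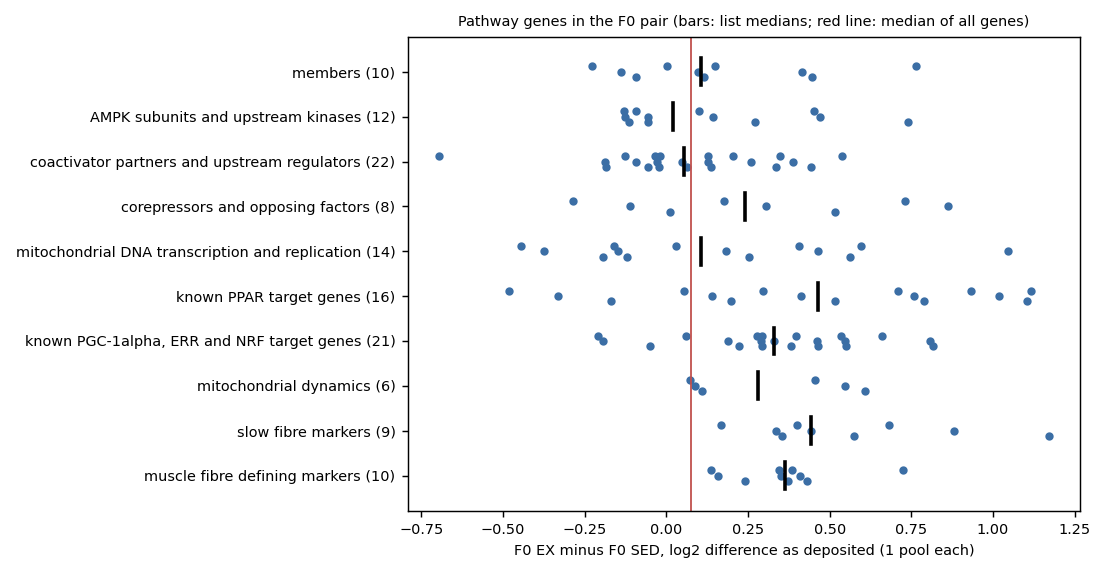
F0 EX minus F0 SED (log2, as deposited, 1 pool each) for every kept gene of the members, the pathway lists and the fibre markers, with black bars at list medians and a red line at the median of all genes (0.08). The members' bar (0.11) lies beside the red line, and those of PPAR targets (0.46), slow fibre markers (0.44) and general fibre markers (0.36) lie to its right.

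Whether ancestry altered the regulators was asked first over both descendant generations, with 4 EX against 4 SED pools. By limma with Benjamini-Hochberg adjustment over 11963 genes, 0 members passed an adjusted p of 0.05, and 0% of all genes did. At an unadjusted p under 0.05, limma listed 597 genes (4.99%), among them 1 member, Tfam. The EX and SED pools overlapped for all 10 members, and 3.03% of genes had no overlap. The members' median estimate was 0.06 and that of all genes 0.01. Some marker lists leaned in a single direction in the same comparison, though 0% of all genes passed. Of all genes, 6371 had estimates above 0 and 5592 below. Slow fibre markers were higher in EX in 9 of 9 (median 0.14), among them Tnnt1, slow troponin T, at 0.29 without overlap (limma adjusted p = 0.888). Adipocyte markers were lower in 6 of 6 (median -0.40), 3 of them at an unadjusted limma p under 0.05. Without F1 EX pool 1 these medians were 0.12 and -0.31, again in 9 of 9 and 6 of 6, and their part in the members' values was not tested.

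Tfam had the largest estimate. Its EX pools read 6.42 and 5.99 in F1 and 6.33 and 6.24 in F2, and its SED pools 5.68 and 6.23 in F1 and 5.94 and 5.91 in F2. EX means were above SED means in both generations, but the F1 pools overlapped. The estimate was 0.30 (SE 0.13, 95% interval 0.01 to 0.60, limma adjusted p = 0.888), or 1.23-fold, and 0.23 without F1 EX pool 1 (limma adjusted p = 0.896). For Tfam the difference thus did not survive adjustment over the genes.

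Ppargc1a had an ancestry estimate whose interval ran from -0.19 to 0.33 around 0.07, which leaves out differences as wide as that between the F0 pools. Its further probe set had -0.08 (interval -0.38 to 0.22), and 0.02 without F1 EX pool 1. Nrf1, which binds promoters of respiratory genes, was at 0.14, Ppargc1b at 0.11 and Ppara at 0.09. Esrra, Gabpa, Ppard, Esrrg and Prkaa2 lay between -0.04 and 0.04. Without F1 EX pool 1 the estimates were 0.05 for Ppargc1a, 0.19 for Nrf1, 0.06 for Ppargc1b, 0.04 for Ppara, 0.10 for Esrrg and 0.08 for Gabpa, so those of Ppargc1b and Ppara rested in large part on that pool. The intervals of these 9 members all held 0, and the widest, that of Ppargc1b, reached from -0.18 to 0.40.

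**Figure D4:**
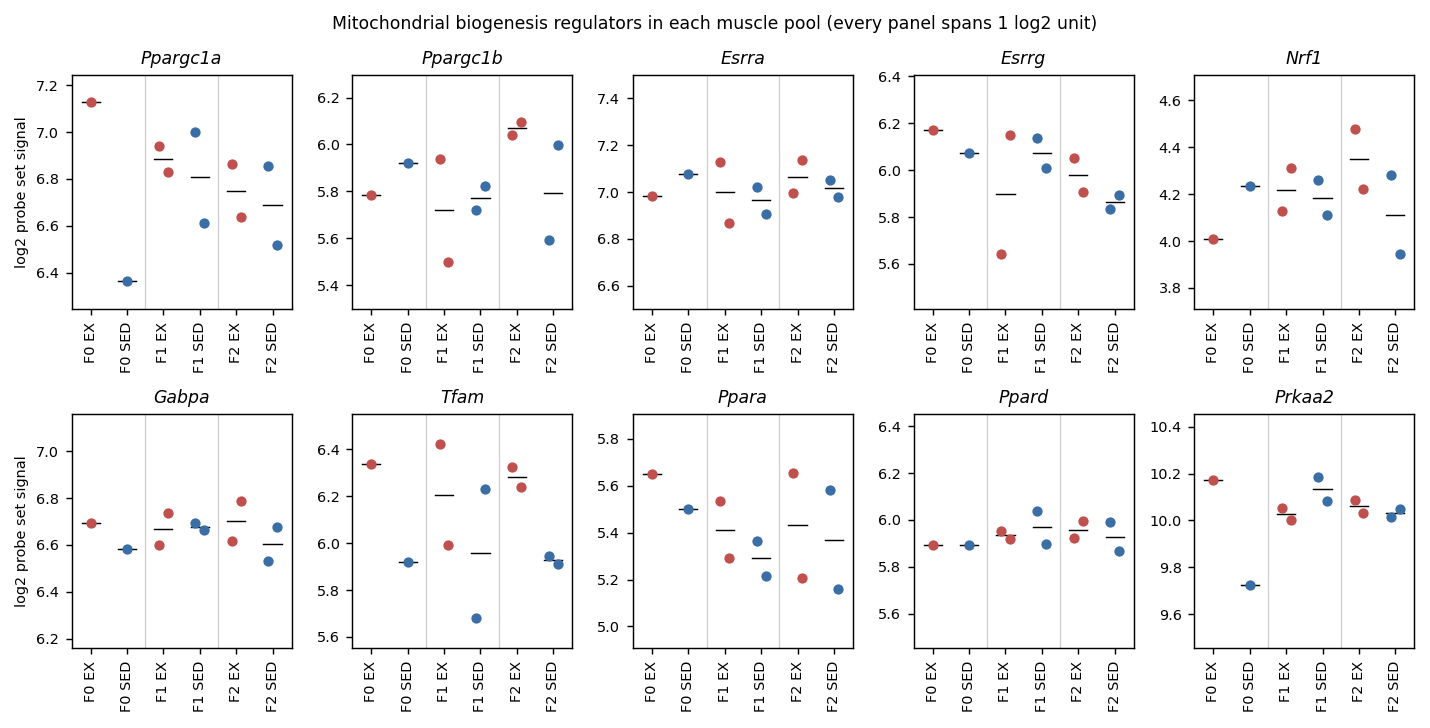
Log2 signal of the 10 regulators in the 10 pools (red EX, blue SED, black lines group means, each panel spanning 1 log2 unit). F0 EX and F0 SED lie furthest apart for Ppargc1a (7.13 and 6.36), EX descendants average above SED descendants for Tfam (6.24 and 5.94), and Ppard stays between 5.87 and 6.04.

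Within F1, with 2 pools against 2, 0 members and 0% of all genes passed (584 genes, 4.88%, at an unadjusted limma p under 0.05). Tfam was 0.25 higher in EX, Ppara 0.12 and Ppargc1a 0.08, and Esrrg was 0.18 lower and Prkaa2 0.11 lower. Esrrg, a receptor of oxidative fibres, read 5.64 in F1 EX pool 1 and 6.15 in pool 2, against 6.14 and 6.01 in F1 SED. Its lower mean came from pool 1, and without that pool the estimate was 0.08. Prkaa2 was the only member whose F1 pools did not overlap (10.05 and 10.00 in EX, 10.18 and 10.08 in SED), where 29.6% of all genes had no overlap and 16.6% were lower without overlap. Without F1 EX pool 1 the estimates were 0.03 for Tfam, 0.02 for Ppargc1a, 0.00 for Ppara and -0.13 for Prkaa2, and that of Ppargc1b went from -0.05 to -0.27. None of the higher F1 values of Tfam, Ppara and Ppargc1a thus reached 0.1 without that pool.

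Of 12 AMPK subunits and upstream kinases, 6 were above 0 and 6 below (median -0.01). Without F1 EX pool 1, 2 of these 12 were above 0 and 10 below (median -0.07). Cab39, the scaffold of the LKB1 complex that activates AMPK, was 0.55 lower in F1 EX (limma adjusted p = 0.804), and at -0.11 without F1 EX pool 1. Of the other AMPK and upstream genes, 0 of 11 had an unadjusted limma p under 0.05. PGC-1alpha, ERR and NRF targets had 15 of 21 estimates below 0 (median -0.05), as had 10 of 16 PPAR targets (median -0.07) and 19 of 22 partners (median -0.06), beside a median of 0.00 and 6111 of 11963 for all genes. General fibre markers were below 0 in 8 of 10 (median -0.10). The mean deviation of PGC-1alpha, ERR and NRF targets from their level over all arrays was -0.10 in F1 EX pool 1 and -0.01 in pool 2, against 0.07 and -0.04 in F1 SED. Without F1 EX pool 1, the counts below 0 were 11 of 21 for these targets, 13 of 16 for PPAR targets, 16 of 22 for partners, 5 of 10 for general fibre markers and 6953 of all genes. After quantile normalization of all arrays the counts for targets of the coactivator, PPAR targets and partners were 10, 9 and 14, and the median of the PGC-1alpha, ERR and NRF targets turned to 0.03. In these F1 pools the lists thus had 0 genes passing and, for the PGC-1alpha, ERR and NRF targets, a direction that depended on scaling and on 1 pool. Adipocyte markers leaned downward in that comparison, and 0 passed. All 6 were lower in F1 EX, with a median of -0.72, Adipoq at -1.05, and 4 at an unadjusted limma p under 0.05. Their median was -0.59 without F1 EX pool 1, with 6 of 6 lower. The part of either marker list in the members' values was not tested.

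In F2, all 10 members had estimates above 0 as deposited, as had 7257 of 11963 genes. After centring over the kept genes, and after quantile normalization, 7 of 10 did, with Esrra, Ppard and Prkaa2 below 0, beside 5473 and 6616 of all genes. Again 0 members and 0% of all genes passed (532 genes, 4.45%, at an unadjusted limma p under 0.05). Tfam was 0.36 higher in EX, Ppargc1b 0.27, Nrf1 0.24 and Esrrg 0.12. Gabpa was 0.10 higher, Ppargc1a and Ppara 0.06, Esrra 0.05, and Ppard and Prkaa2 0.03. The members' median was 0.08, beside 0.04 for all genes. Estimates for Tfam, Ppargc1b, Nrf1 and Esrrg kept their sign under the 3 other scalings. Leaving out 1 F2 pool at a time moved Tfam only from 0.31 to 0.40, but Ppargc1b was at 0.07 without F2 SED pool 1 and 0.48 without F2 SED pool 2. Nrf1 was at 0.07 without F2 SED pool 2, 0.11 without F2 EX pool 1 and 0.41 without F2 SED pool 1, and Esrrg at 0.04 without F2 EX pool 1. Ppargc1a, Ppara, Esrra and Ppard turned below 0 without at least 1 F2 pool.

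Pools did not overlap for 3 of 10 members, all higher in EX, where 40.4% of all genes had no overlap and 25.8% were higher without overlap. Ppargc1b read 6.04 and 6.10 in F2 EX against 5.59 and 6.00 in F2 SED. Tfam read 6.33 and 6.24 against 5.94 and 5.91, and Esrrg 6.05 and 5.91 against 5.83 and 5.89. Tfam thus had the clearest gap, and for Ppargc1b and Esrrg the closest pools of both ancestries were 0.04 and 0.01 apart. The limma estimate for Tfam had a 95% interval from -0.09 to 0.80, and that for Ppargc1b from -0.13 to 0.68.

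Downstream lists in F2 had 0 genes that passed. PPAR targets had 16 of 16 estimates above 0 with a median of 0.15, led by the thiolase Acaa2 (0.33) and Acot2 (0.29), and 1 had an unadjusted limma p under 0.05. Targets of PGC-1alpha, ERR and NRF had 16 of 21 above 0 with a median of 0.05. After centring over the kept genes the counts were 15 of 16 and 10 of 21. Slow fibre markers were higher in 9 of 9 (median 0.29, Tnnt1 0.37), and hepatocyte markers, which vary widely between pools, were higher in 6 of 6 (median 0.40, Alb 0.78). The part of either in the members' F2 values was not tested.

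The difference between both ancestry effects (F2 minus F1) was tested directly. It called 0 members and 0% of all genes, with 519 genes (4.34%) at an unadjusted limma p under 0.05. Ppargc1b had the largest, 0.33 (95% interval -0.24 to 0.90), and 0.55 without F1 EX pool 1 (limma adjusted p = 0.803). Esrrg was at 0.29, and at 0.04 without that pool. Ppargc1a was at -0.02 (interval -0.56 to 0.53) and its further probe set at 0.36 (interval -0.22 to 0.95), which was 0.19 without F1 EX pool 1. With all pools the intervals of all 10 members included 0, and without that pool the interval of Ppargc1b ran from 0.04 to 1.06.

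**Figure D5:**
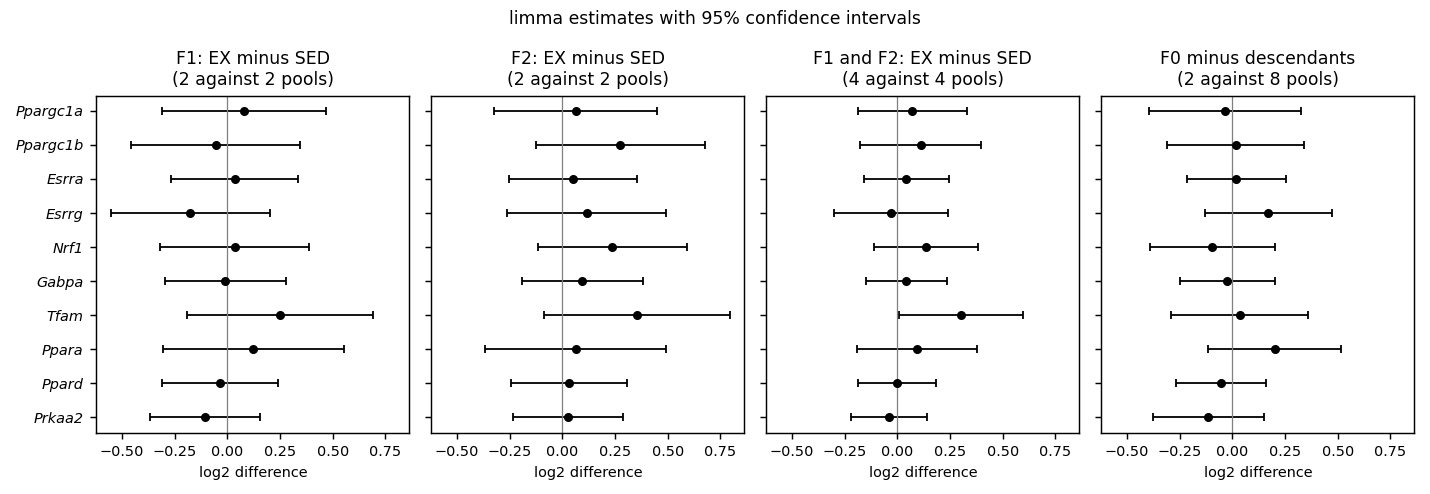
Limma estimates (points) with 95% confidence intervals (bars) on the log2 scale for the 10 members in 4 comparisons. The interval of Tfam over both descendant generations (0.01 to 0.60) lies right of 0, and the other 39 intervals include it.

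Between generations of the same age, F2 and F1 were set side by side with 4 pools each. Limma passed 0 members and 0% of all genes (509 genes, 4.25%, at an unadjusted p under 0.05). The pools of the generations overlapped for all 10 members, and 2.88% of genes had no overlap. Ppargc1b was 0.19 higher in F2 (95% interval -0.10 to 0.47). Ppargc1a was 0.13 lower (interval -0.39 to 0.13), and its further probe set 0.03 higher. The other 8 members lay between -0.06 and 0.06. When F1 EX pool 1 was left out, Esrrg was at -0.19, with a 95% interval, not adjusted over the genes, from -0.37 to -0.02. Ppargc1b was then at 0.24, Esrra at 0.11, Tfam and Ppara at 0.10, and the further probe set at -0.08.

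F0 pools differed from descendants in age, generation, mating and own exercise at once, and these cannot be told apart. In this comparison limma passed 279 of 11963 genes (2.33%, of which 0.794% higher and 1.54% lower in F0) and 0 of 10 members. At an unadjusted p under 0.05, limma listed 2106 genes (17.6%) and 0 members, and the arrays overlapped for all 10 members (12.4% of genes had no overlap). Ppara, the receptor that drives fatty acid oxidation, had the largest estimate, 0.20 higher in F0 (95% interval -0.11 to 0.52, adjusted p = 0.517). Its F0 pools read 5.65 and 5.50 and its descendants 5.16 to 5.66, with a median of 5.33. Both F0 values were thus in the upper part of an overlapping range.

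Esrrg was 0.17 higher in F0 (limma adjusted p = 0.563) and Prkaa2 0.11 lower, and the other 7 lay between -0.09 and 0.04. For Ppargc1a the mean of both F0 pools, 6.75, lay beside the descendants' mean of 6.78 ± 0.17 (SD, n = 8), because F0 EX lay above and F0 SED below them. Without F0 SED the estimates for F0 were 0.31 for Ppargc1a and 0.13 for Prkaa2, neither with an adjusted limma p under 0.05. Nrf1 was then at -0.28, and the further probe set of Ppargc1a at 0.75, against -0.08 with both F0 pools. Over the fits that left out 1 array, that probe set ran from -0.91 to 0.75, and its limma adjusted p did not stay above 0.05 in all of them. Of the pathway lists, 1 gene passed. It was Esrrb, which was 0.73 higher in F0 (SE 0.17, limma adjusted p = 0.0441). It read 3.92 in F0 EX and 4.62 in F0 SED, above descendants of 3.26 to 3.81. F0 SED, with the higher of these values, was an array with a raised lower quartile (2.48). Esrrb was also dim, its descendants lying near the filter cutoff of 3.23, and the part of either in its estimate was not tested. Without F0 SED it was 0.39 higher and did not pass (limma adjusted p = 0.435, and 0.0109 to 0.435 over the fits that left out 1 array).

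Markers of other cells also differed in that comparison. Pecam1 and Cdh5, surface proteins of endothelium, fell by 0.71 and 0.62 in F0 (limma adjusted p = 0.0134 and 0.0268). The plasma protein gene Alb fell by 2.85 (limma adjusted p = 0.0222) and the atrial light chain gene Myl4 fell by 0.57 (0.0161). Without F0 SED none of these 4 passed, with estimates of -0.47, -0.80, -2.16 and -0.58, and over the fits that left out 1 array their limma adjusted p ranged from 0.0056 to 0.301. All 5 endothelial estimates and all 6 of the hepatocyte list were below 0, and 4 of 5 and 6 of 6 without F0 SED. The cardiomyocyte list had 2 kept genes, and the other, Myh6, was at 0.42, opposite in sign to Myl4. How far such shifts bear on the members' F0 values was not tested.

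How much a regulator varied among the 8 descendant pools differed within the set. Ppard spanned 0.17 and Prkaa2 0.18, narrower than nearly all genes (percentiles 2.27 and 2.73 of the range), and Gabpa 0.25 and Esrra 0.27 (9.71 and 12.2). Ppargc1a spanned 0.48, near the middle (percentile 53.8), as did Ppara (0.50), Esrrg (0.51) and Nrf1 (0.53). Ppargc1b spanned 0.60 (percentile 71.3) and Tfam 0.74 (85.9). The factor that packages mitochondrial DNA was thus the most variable of the set and the PPAR isoform Ppard the least.

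Profiles over the 8 descendant arrays were compared as a description, since a search of all kept genes over 8 points gives high values readily and the points share the arrays' scaling. The genes closest to Ppargc1a were Dera (r = 0.95), Trp53bp1 (0.93), Mfsd1, Guk1 and Ttll11 (each 0.92). Over all 10 arrays the same r were 0.19, 0.38, 0.25, -0.09 and 0.66, so the F0 pools did not follow the likeness. Tfam was closest to Lgi1 (0.97, and 0.89 over 10 arrays), Eln (0.94 and 0.21) and Plppr4 (0.93 and 0.90), and Ppargc1b to St6galnac4 (0.96 and 0.91), Thop1 (0.94 and 0.84) and Ncoa2 (0.94 and 0.86), itself a nuclear receptor coactivator. Esrra was closest to Trap1 and Tars2 (both 0.98, and 0.31 and 0.59 over 10 arrays), which encode a mitochondrial chaperone and a mitochondrial tRNA ligase, and to Lactb2 (0.96 and 0.52).

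For the other members the closest genes were Baz1b, Ryr1 and Slc6a6 for Esrrg (0.98, 0.97 and 0.96), and Zfp825, Mettl15 and Ctcf for Nrf1 (0.96, 0.94 and 0.93). For Gabpa they were Isoc2b, Maf1 and Fndc3b (0.96, 0.92 and 0.91), and for Ppara Bzw2, Evc and Rap1gap (0.96, 0.96 and 0.95). Rny3, Parp2 and Dcaf17 were closest to Ppard (0.94, 0.92 and 0.92), and Pex11g, Rasd1 and Fuca2 to Prkaa2 (each 0.93). No member was among the genes closest to another.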

How the data were processed

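Gene expression in 10 pooled muscle RNA samples had been measured on Affymetrix whole-transcript arrays. The authors deposited a table of log2 probe set signals made, per the submitters' processing notes, with Affymetrix Expression Console. The log2 scale was inferred from the range of values. How background was corrected and signals were normalized and summarized is not given in the sources used here, and neither is a build, so values were used as deposited. Of 35557 probe sets, the platform annotation, which can be old, gives 21789 a single symbol, 1621 several and 12147 none. The brightest probe set stood for a gene (999 of 19938 had several), and genes with means under the 40th percentile (3.23) were dropped. Limma 3.58.1 in R 4.3.3 was run on the remaining 11963 with Benjamini-Hochberg adjustment. Descendant contrasts came from the 8 descendant arrays (4 group means, or ancestry plus generation), and F0 against descendants from all 10 with EX or SED as a covariate. That covariate assumes 1 shared difference for own exercise in F0 and ancestry in descendants. F0 EX and SED, 1 pool each, were compared by size (0.5 on the log2 scale). The fits were tested on simulated data. Members, the 16 other gene lists, tests and alternatives were chosen with earlier results of these data known. All members are described, and of each list the genes that passed and up to 4 with the widest differences are named, with a few others added after their values were seen. Promoter windows came from a RefSeq table. Array numbers limit the precision, and no detection calls were used.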

Additional observations from a re-analysis of the deposited data

How the results depend on the processing

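Over 118 fits of the 6 tested comparisons, 0 members passed (1174 estimates, lowest limma adjusted p 0.0776). These estimates do not include the further Ppargc1a probe set, so the count of 0 does not cover it. In F0 against descendants that probe set ran from -0.91 to 0.75 when 1 array was left out. In the F0 pair, 3 members instead of 1 reached 0.5 when arrays were centred over all probe sets. Averaging a gene's probe sets turned Ppargc1a to -0.093 in F1, -0.0059 over both generations and 0.17 for the difference of effects, which was 0.0766 after that centring. Leaving out both arrays that stood apart gave 0.0411 there, 0.0775 for Esrrg in F1, and 0.33 for Ppargc1a and 0.13 for Prkaa2 in F0 against descendants. Centring over the kept genes was chosen after seeing the data.

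Leaving out 1 pool at a time moved Ppargc1a between -0.12 and 0.27 in F1, -0.11 and 0.23 in F2, -0.0088 and 0.15 over both, -0.21 and 0.18 for the difference, and -0.38 and 0.31 for F0 against descendants. Prkaa2 ran from -0.36 to 0.13 in the last, Esrrg from -0.43 to 0.0775 and Tfam from -0.0245 to 0.52 in F1, and Ppargc1b from -0.004 to 0.23 over both. Tfam over both stayed between 0.20 and 0.42. A lone pool was assumed to vary like the other groups. Without F1 EX pool 2, 1046 genes and 0 members passed in F1 and 143 in the difference, and without F1 SED pool 1, 8 and 5. F0 against descendants passed 1231 genes without F0 EX, 86 without F0 SED, 584 without F1 EX pool 1 and 38 with array weights. F2 against F1 passed 1 with array weights and 2 when eBayes used a trend with robust settings.

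Pool numbers did not pair the samples (r of same-numbered deviations -0.11 to 0.06). With the replicate block, Tfam over both was again 0.30 (limma adjusted p = 0.891) and 0 members passed. Pool 1 was above pool 2 in all 4 groups for Ppargc1a and Ppara, as for 8.51% of genes. Fitting all 10 arrays, F0 included, gave EX minus SED estimates of 0.21 for Ppargc1a and 0.32 for Tfam, which mix own exercise in F0 with ancestry. The cause of these moves was not tested.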
